A study of Mus musculus with 6 samples.

Results

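Cell cycle and proliferation genes were compared in the renal cortex of mice after unilateral ischemia-reperfusion injury (UIRI) with and without bruceine A (BA), a plant quassinoid. The list holds 36 genes, chosen by symbol as known drivers and markers of cell division and not by a threshold on their values, and all 36 were found among the 19176 rows of the table. They were divided by the stage at which they act into 18 G1/S genes, which start the cycle and copy the DNA, and 18 G2/M genes, which prepare and carry out mitosis. Ccna2, which acts in S phase as well as before mitosis, was placed with the G2/M genes.

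The data are RNA sequencing libraries from 6 wild-type C57BL/6J mice, which the methods describe as male and 8 weeks old at purchase. All 6 had the left renal pedicle clamped, lost the right kidney the day before sampling, and were sampled on day 14. The UIRI group (n = 3) received vehicle by daily intraperitoneal injection, and the UIRI + BA group (n = 3) received the compound, written Brucine A in the labels, at 1 mg/kg each day. Sham kidneys were not analysed here, so a level in UIRI cannot be read as raised or lowered by the injury. Values are normalized counts, the reads on a gene divided by a size factor for the library, and are listed for replicates 1 to 3 in that order, under vehicle for the UIRI group and under BA for the UIRI + BA group. A log2 fold change, or log2 change, is UIRI + BA minus UIRI on log2(normalized count + 1). Because cortex is a mixture of cells, fewer dividing cells and less RNA per dividing cell cannot be told apart.

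As background, D-type cyclins with Cdk4 or Cdk6 open the cycle by phosphorylating the RB protein, which frees E2F factors to switch on the genes of DNA replication. Later the MuvB complex with MYBL2 and FOXM1 switches on the genes of mitosis, and the anaphase promoting complex ends mitosis by having cyclin B destroyed. After ischemia, surviving tubule cells re-enter the cycle to replace lost neighbours, and arrest of tubule cells before mitosis is a known companion of fibrosis. Proliferating macrophages, fibroblasts and endothelial cells use the same genes, so these transcripts do not name the dividing cell.

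Cell cycle genes are switched through short elements in their promoters, so promoter sequence was examined. Detail is given for members with the lowest unadjusted p of each stage for which a promoter sequence was found. RefSeq windows of 300 bases (250 before to 50 after a transcription start, build GRCm38.p6) were found for 28 of the 36 genes, in 30 windows. Each was searched on both strands for E2F elements (TTTCCCGC, TTTGGCGC, TTTCGCGC or TTTGCCGC), for the cell cycle genes homology region or CHR (TTTGAA or TTTAAA), to which MuvB binds, and for the CCAAT box (CCAAT), the element of the factor NF-Y. Matches on opposite strands can overlap, as a pair of E2F matches in Mcm6 do. The windows of Mcm6 (G1/S) and of Kif11, Cdc20, Cenpe and Bub1 (G2/M) show the elements of both stages, each read 5′ to 3′ along the gene, with every match in capitals.
Mcm6, chr1:128359656-128359955, minus strand: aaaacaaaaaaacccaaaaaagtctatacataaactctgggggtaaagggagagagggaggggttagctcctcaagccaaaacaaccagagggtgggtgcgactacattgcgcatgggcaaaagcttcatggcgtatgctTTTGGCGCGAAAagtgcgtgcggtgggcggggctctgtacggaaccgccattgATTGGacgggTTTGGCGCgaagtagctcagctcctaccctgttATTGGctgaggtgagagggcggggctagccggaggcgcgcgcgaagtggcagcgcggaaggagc
Kif11, chr19:37376132-37376431, plus strand: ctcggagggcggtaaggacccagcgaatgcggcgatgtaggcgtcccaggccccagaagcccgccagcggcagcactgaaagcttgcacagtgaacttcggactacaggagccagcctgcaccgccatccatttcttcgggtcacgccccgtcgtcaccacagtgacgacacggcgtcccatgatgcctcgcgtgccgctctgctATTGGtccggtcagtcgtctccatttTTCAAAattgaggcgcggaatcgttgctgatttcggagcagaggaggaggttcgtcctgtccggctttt
Cdc20, chr4:118437294-118437593, minus strand: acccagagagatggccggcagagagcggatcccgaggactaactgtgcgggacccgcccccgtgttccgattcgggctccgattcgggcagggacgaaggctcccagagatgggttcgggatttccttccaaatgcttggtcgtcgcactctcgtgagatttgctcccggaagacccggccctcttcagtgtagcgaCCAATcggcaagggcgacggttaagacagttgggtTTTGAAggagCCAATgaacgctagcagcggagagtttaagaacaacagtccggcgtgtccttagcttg
Cenpe, chr3:135212313-135212612, plus strand: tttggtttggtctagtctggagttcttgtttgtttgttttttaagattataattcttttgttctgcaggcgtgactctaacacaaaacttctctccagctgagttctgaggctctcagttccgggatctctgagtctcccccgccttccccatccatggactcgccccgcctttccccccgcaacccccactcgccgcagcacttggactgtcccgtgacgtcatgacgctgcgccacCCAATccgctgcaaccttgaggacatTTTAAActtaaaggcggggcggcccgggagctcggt
Bub1, chr2:127831810-127832109, minus strand: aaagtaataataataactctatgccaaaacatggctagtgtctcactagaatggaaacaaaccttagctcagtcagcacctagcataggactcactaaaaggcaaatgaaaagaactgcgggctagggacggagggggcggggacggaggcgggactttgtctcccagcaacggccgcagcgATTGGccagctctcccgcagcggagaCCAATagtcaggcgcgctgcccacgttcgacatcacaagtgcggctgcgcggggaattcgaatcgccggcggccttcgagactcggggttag

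The Mcm6 window held 3 E2F matches, a pair of which overlap, and 2 CCAAT boxes but 0 CHR matches. In Kif11 the CCAAT box began 45 bases before the start and the CHR match 19 bases before it. Cdc20 had a CCAAT box 53 bases before the start, a CHR match 18 bases before it and another CCAAT box 8 bases before it. In Cenpe the CCAAT box began 12 bases before the start and the CHR match 14 bases after it. The Bub1 window held 2 CCAAT boxes and 0 CHR matches, and that of Tyms, a G1/S gene, held none of the motifs. Ccne2 and Ccnd1, which had the largest log2 fold changes of the G1/S genes, had no RefSeq window and were not examined. Over all G2/M windows, 13 of 14 (92.9%) held a CHR match and 14 of 14 a CCAAT box, against 27.6% and 37.4% of all 32851 promoter windows. Of the 16 G1/S windows, 4 (25%) held a CHR match and 10 (62.5%) a CCAAT box, so CCAAT boxes were more frequent than in all windows there too. A CHR match and a CCAAT box stood together in 13 of the 14 G2/M windows, in 3 of the 16 G1/S windows and in 10.7% of all windows. E2F matches lay in 5 of 16 G1/S windows (31.2%), in 1 of 14 G2/M windows and in 2.26% of all windows. These shares describe letters in the windows and were not used to choose the genes.

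**Figure D1:**
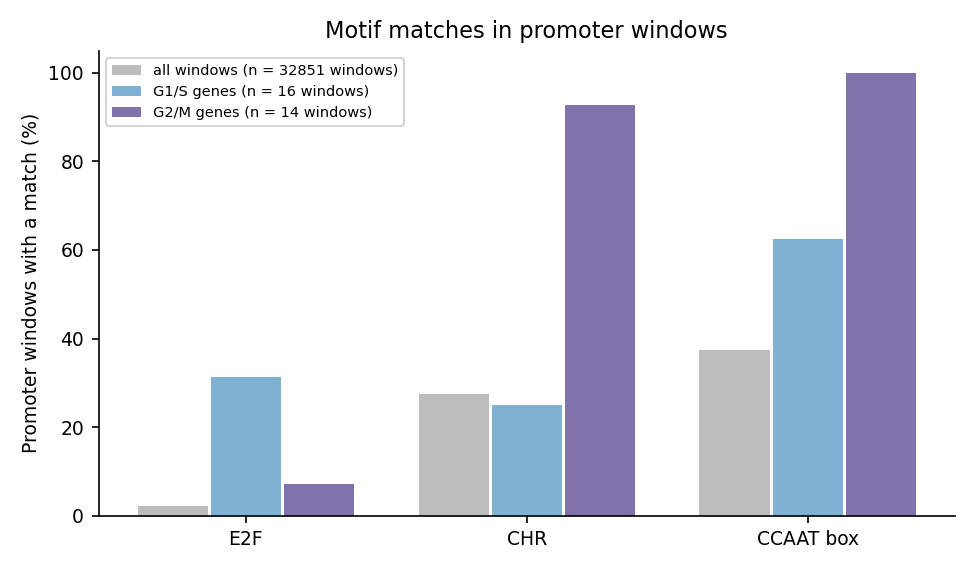
Share of promoter windows with at least 1 match to each element, for all windows, for windows of G1/S genes and for windows of G2/M genes. CHR matches were found in 92.9% of G2/M windows and 27.6% of all windows, and E2F matches in 31.2% of G1/S windows and 2.26% of all windows.

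Reads on genes ranged from 16510720 to 38124164 per library, with UIRI replicate 3 holding 2.04 times the median of the rest. Across all genes its log2 values correlated at 0.987 and 0.986 (Pearson) with UIRI replicates 1 and 2, which correlated at 0.993 with each other, and at 0.992 with UIRI + BA replicate 3. Counts of the cell cycle genes and of the further pathway genes are therefore given with and without it. Every one of the 36 genes was well covered, with 48 to 5439 reads in each library, and none was lost to a filter. Proximal tubule markers were present in all 6 libraries, with summed normalized counts of 51875 to 67105 in UIRI and 70739 to 123964 in UIRI + BA. Kap alone held 29077 of the 51875 in UIRI replicate 1 and 76195 of the 123964 in UIRI + BA replicate 3.

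Transcripts of both stages differed little between UIRI and UIRI + BA. By limma, 0 of the 36 genes reached an adjusted p under 0.05, where 0 of 19176 genes (0%) did and 1971 had an unadjusted p below 0.05. DESeq2 on the recovered reads gave 213 genes (1.49% of those tested) and edgeR 0 (0%), with 0 members in either, and the smallest adjusted p among the members was 0.448. Before adjustment, 1 of the 36 genes (2.78%) had a p below 0.05, against 10.3% of all genes tested, and in that direction, higher with BA, 5.67% of all genes did. DESeq2 and edgeR each gave 1 of the 36 before adjustment, against 7.88% and 9.93% of the genes they tested. The ranges of the groups were separate for 5 of the 36 (13.9%), against 14.4% of all genes. Of these, 4 were higher with BA and 1 lower, against 7.45% and 6.96% of all genes. The log2 fold changes ran from -0.23 to 0.31, and their median size was 0.079, beside 0.11 over the 13374 rows that are at least as abundant as the lowest member. A change larger than that of any member was seen in 10.8% of those rows. Each 95% interval is for a single gene and was not adjusted for the number of genes, so the limits are not a joint bound. Over the 36 genes the lowest limit was 0.695-fold and the highest 1.55-fold. For 31 genes the whole interval lay within 0.5 of 0 on the log2 scale. Differences inside these intervals were not resolved with 3 libraries a group, and the intervals do not show that the groups are equal.

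**Figure D2:**
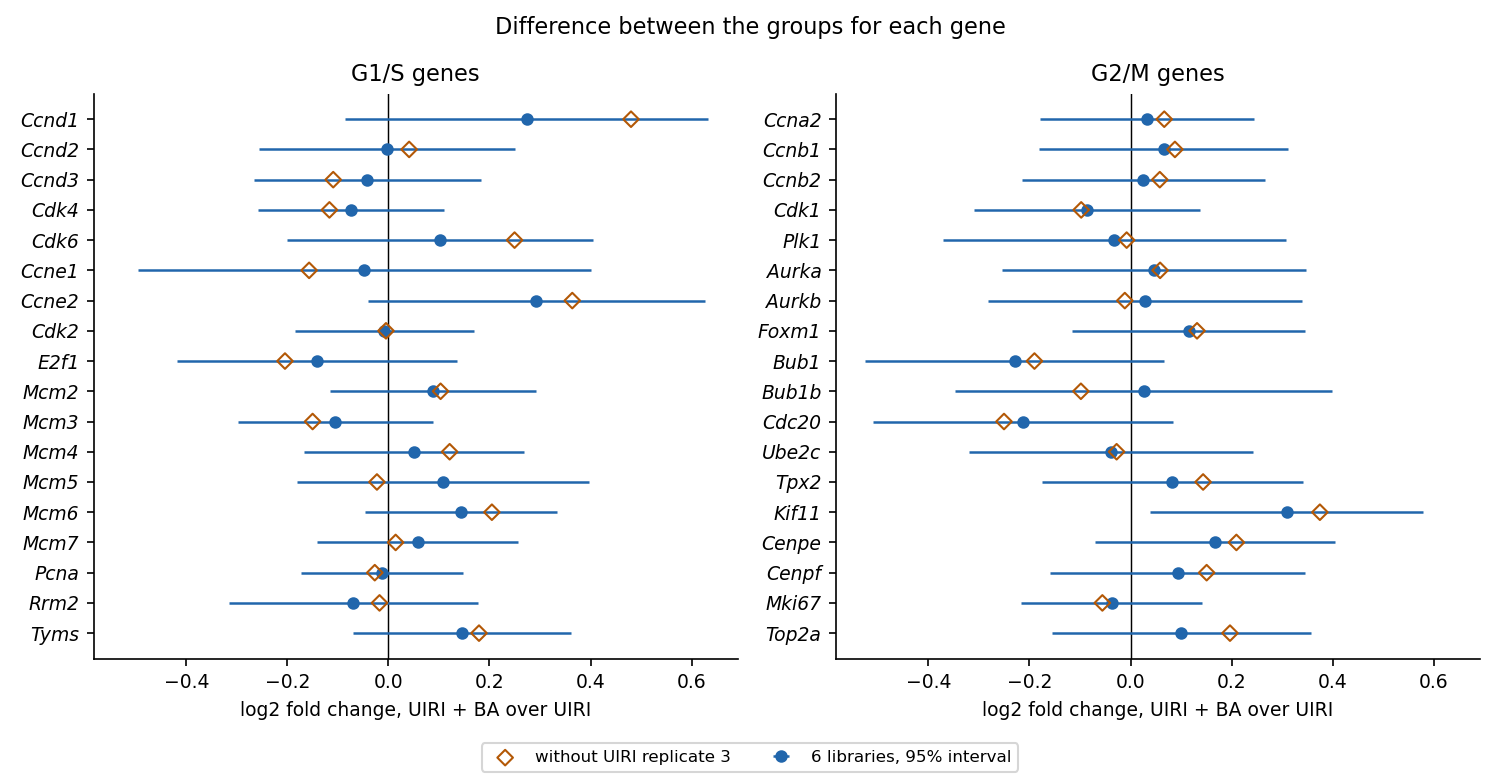
Log2 fold change of each cell cycle gene, UIRI + BA over UIRI, on log2(normalized count + 1). Circles with bars are limma's estimate and 95% interval from 6 libraries, and open diamonds are the estimate without UIRI replicate 3. For 35 of the 36 genes the interval includes 0. Kif11, at 0.31, is the exception.

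The D-type cyclins and their kinases open G1. Cyclin D1, encoded by Ccnd1, is the cyclin most closely tied to growth signals and is a known target of Wnt signaling. Its normalized counts were 1176, 1301 and 1902 (replicates 1 to 3) under vehicle against 1868, 1663 and 1655 under BA. The pair of lower UIRI libraries lay below all of UIRI + BA, while UIRI replicate 3 was the highest of the 6. The log2 fold change of Ccnd1 was 0.27 (SE 0.16, 95% interval from -0.087 to 0.63), with an adjusted p of 0.568 from limma, which became 0.48 with an adjusted p of 0.0205 from limma when UIRI replicate 3 was left out. Over the other alternatives its adjusted p from limma, DESeq2 or edgeR was as high as 1.00, and its exons overlap LTO1 on the opposite strand.

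Ccnd2 read 877, 882 and 963 under vehicle against 1041, 918 and 775 under BA, and Ccnd3 read 1127, 1138 and 984 under vehicle against 1019.7, 1174 and 967 under BA. For both cyclins the groups overlapped and the log2 fold changes were -0.0028 and -0.041. Cdk4, a kinase partner of the D-type cyclins, read 3236, 3266 and 2979 under vehicle against 2769.8, 3029 and 3212 under BA, for a log2 change of -0.075. Cdk6, the other partner, read 1860.2, 1867 and 2535 under vehicle against 2489, 1974 and 2214 under BA. As with Ccnd1, UIRI replicate 3 was the highest library for Cdk6, and its log2 fold change was 0.10 with that library and 0.25 without it (adjusted p 0.149 from limma).

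The E-type cyclins with Cdk2 drive entry into S phase. Ccne1 was among the least abundant members at 66.8, 79.9 and 58.1 under vehicle against 60.1, 79.7 and 58.4 under BA. Ccne2 read 128, 148 and 159.9 under vehicle against 204, 176 and 157 under BA, for a log2 change of 0.29 (SE 0.15, 95% interval from -0.040 to 0.63), with a limma adjusted p of 0.527. The library of UIRI + BA replicate 3 lay between UIRI replicates 2 and 3, so the groups overlapped for Ccne2. Cdk2 was level, at 1023, 961 and 998 under vehicle against 1039.8, 934 and 993 under BA. E2f1, the factor that switches on replication genes, read 195, 217 and 180.2 under vehicle against 179, 188 and 168 under BA, and its log2 fold change of -0.14 was the lowest among the G1/S genes.

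The Mcm2 to Mcm7 proteins form the helicase that unwinds DNA at replication forks. Mcm6 had the largest log2 fold change of the complex, with normalized counts of 1035, 1047 and 1182 under vehicle against 1260.2, 1152 and 1191 under BA, where UIRI replicate 3 exceeded UIRI + BA replicate 2. For Mcm6 it was 0.14 (SE 0.084, 95% interval from -0.045 to 0.33), which was 0.20 without UIRI replicate 3 (adjusted p 0.134 from limma). Mcm2 read 502, 463 and 498 under vehicle against 549, 487 and 521 under BA. The 6 subunits did not share a direction: 5 had a log2 fold change above 0 and Mcm3 was at -0.10, with values of 685, 640.0 and 603 under vehicle against 600.1, 611 and 580.2 under BA. Mcm4 read 719, 665 and 801 under vehicle against 795, 704 and 759.7 under BA. Mcm5 read 397, 372 and 292 under vehicle against 358, 376 and 402 under BA. For Mcm5 the lowest library was UIRI replicate 3, and its log2 fold change of 0.11 became -0.023 without it. Mcm7 read 1110.2, 972 and 949 under vehicle against 1018, 1022 and 1109 under BA, with overlapping groups.

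Pcna encodes the sliding clamp of DNA polymerase. It was the steadiest member, at 1959.9, 1855 and 1850.5 under vehicle against 1805, 1880.3 and 1930.4 under BA, so that its highest library was 1.09 times its lowest, and its log2 fold change was -0.013 (SE 0.071, 95% interval from -0.17 to 0.15). Rrm2 and Tyms make deoxynucleotides for replication. Rrm2 read 446, 373 and 455 under vehicle against 433, 395 and 383 under BA, for a log2 change of -0.070. Tyms, which makes thymidylate, read 372, 335 and 378 under vehicle against 396, 416 and 388 under BA. All 3 UIRI + BA libraries lay above all 3 UIRI libraries for Tyms, by a small margin and with a log2 change of 0.15 (p = 0.1 by exact permutation, two-sided, which 3 against 3 libraries cannot go below).

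Among the G2/M genes, Mki67 encodes the Ki-67 protein used to stain dividing cells, and Top2a encodes the topoisomerase that untangles sister chromosomes. Mki67 read 1253, 1363 and 1258 (replicates 1 to 3) under vehicle against 1335, 1252 and 1189 under BA. UIRI replicate 2 was its highest library and UIRI + BA replicate 3 its lowest, and the log2 fold change was -0.038 (SE 0.080, 95% interval from -0.22 to 0.14). Top2a read 724, 729 and 887 under vehicle against 941, 800.2 and 767 under BA, with a log2 change of 0.10 (SE 0.11, 95% interval from -0.16 to 0.36). In both genes the groups overlapped.

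The A- and B-type cyclins with Cdk1 trigger mitosis. Ccna2 read 427, 385 and 435 under vehicle against 432, 434 and 408 under BA. Ccnb1 read 182, 177 and 188 under vehicle against 193, 195 and 185 under BA. Ccnb2 read 204, 214 and 223 under vehicle against 209, 222 and 221 under BA. These 3 cyclins had log2 fold changes of 0.032, 0.066 and 0.025, and in each the groups overlapped. Cdk1, their kinase, read 397, 422 and 399 under vehicle against 349.5, 415 and 385 under BA, for a log2 change of -0.086.

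Foxm1, a transcription factor of the mitotic genes, read 228, 227 and 235 under vehicle against 261, 249 and 239 under BA. The groups did not overlap for Foxm1, yet the gap was narrow, with a log2 change of 0.11 (SE 0.10, 95% interval from -0.11 to 0.34) and an adjusted p of 0.695 from limma. The mitotic kinases, which build and check the spindle, overlapped between the groups. Plk1 read 117, 146 and 137 under vehicle against 130.3, 115 and 146 under BA. Aurka read 122, 105 and 116 under vehicle against 122, 116 and 116 under BA. Aurkb, the kinase that corrects faulty spindle attachments, read 169.9, 186 and 163 under vehicle against 150.3, 188 and 193 under BA. Their log2 fold changes were -0.032, 0.046 and 0.029.

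The spindle checkpoint delays separation of the chromosomes, and Cdc20 and Ube2c then carry it out as activator and conjugating enzyme of the anaphase promoting complex. Bub1, a checkpoint kinase, read 151, 138 and 157 under vehicle against 130.3, 115 and 135 under BA. It was the only member whose UIRI + BA libraries all lay below its UIRI libraries, with a log2 change of -0.23 (SE 0.13, 95% interval from -0.52 to 0.067) and an adjusted p of 0.565 from limma. Cdc20 read 204, 191 and 182 under vehicle against 144, 173 and 183 under BA, for a log2 change of -0.21 (SE 0.13, 95% interval from -0.51 to 0.085), but UIRI + BA replicate 3 lay just above UIRI replicate 3. The other checkpoint member, Bub1b, read 236, 300.3 and 205 under vehicle against 288, 214 and 248 under BA. It had a wide spread within each group and a log2 fold change of 0.026. Ube2c read 207, 206 and 211 under vehicle against 175, 219 and 217 under BA, and only UIRI + BA replicate 1 stood apart.

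Spindle and kinetochore genes had the highest median log2 fold change of the role groups, 0.13. The lowest was that of the spindle checkpoint and anaphase genes, -0.13, with 3 of 4 genes below 0. Kif11 encodes the motor that pushes the spindle poles apart. Its normalized counts were 228, 278 and 289 (replicates 1 to 3) under vehicle against 339, 333 and 308 under BA, and no UIRI library reached the lowest UIRI + BA library. The means were 265 ± 32.5 (SD, n = 3) under vehicle against 327 ± 16.7 (SD, n = 3) under BA. The log2 fold change was 0.31 (SE 0.12, 95% interval from 0.039 to 0.58), with an adjusted p of 0.448 from limma. By two-sided exact permutation Kif11 had p = 0.1, the same as Tyms and Cenpe. Over the alternatives its adjusted p ran from 0.103 without UIRI replicate 3 to 1.00, so it passed the threshold in none of them. Cenpe, a kinetochore motor, read 232, 261 and 269 under vehicle against 278, 284 and 292 under BA, again without overlap, with a log2 change of 0.17 (p = 0.1 by two-sided exact permutation). Cenpf, another kinetochore protein, read 237, 259 and 279 under vehicle against 297, 263 and 266 under BA. Tpx2, which nucleates spindle microtubules and activates Aurora A, read 264, 229 and 279 under vehicle against 287, 258 and 271 under BA. All 4 genes of this set had log2 fold changes above 0, from 0.083 to 0.31, but 1 of the 4 had an unadjusted p below 0.05, against 5.67% of all genes in that direction.

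**Figure D3:**
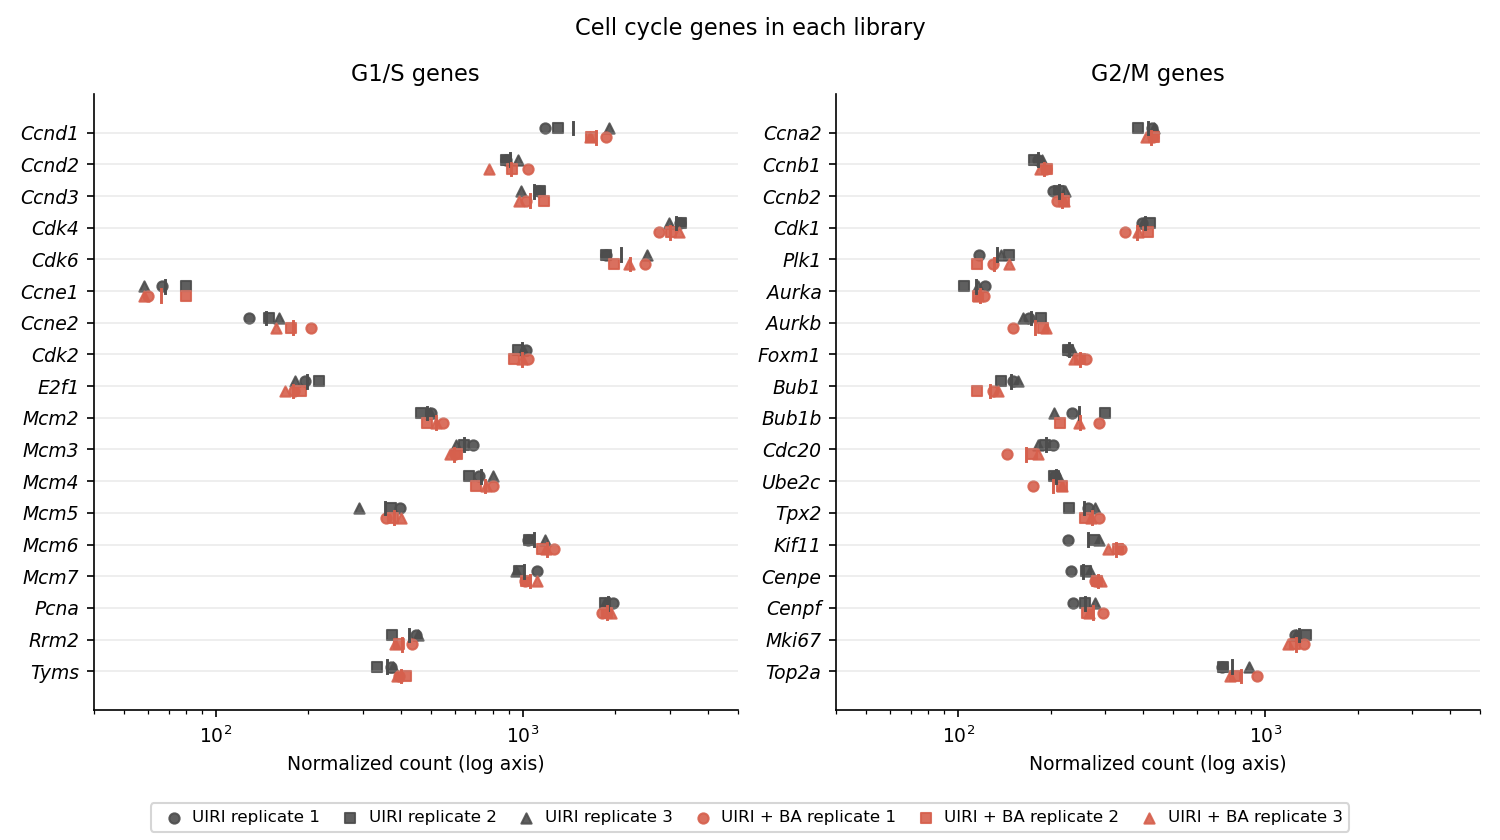
Normalized counts of the 36 genes in each library on a log axis, with UIRI in grey and UIRI + BA in red. Symbols mark the replicates, and vertical ticks are group means (n = 3). Ccnd1 shows UIRI replicates 1 and 2 at 1176 and 1301 and UIRI replicate 3 at 1902, above the 3 UIRI + BA values.

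The stages were also compared by their mean log2 value in each library. The mean of the 18 G1/S genes was 9.35, 9.33 and 9.37 under vehicle against 9.43, 9.39 and 9.36 under BA. That of the 18 G2/M genes was 7.98, 8.02 and 8.05 under vehicle against 8.05, 8.03 and 8.05 under BA. UIRI replicate 1 had the lowest G2/M mean, below the other 5 libraries, and the difference of G2/M minus G1/S was -1.37, -1.31 and -1.32 under vehicle against -1.38, -1.36 and -1.30 under BA, so the balance between stages overlapped between the groups. The median log2 fold change was 0.024 for the G1/S genes and 0.031 for the G2/M genes, beside -0.0053 for all genes. Above 0 stood 9 of the 18 G1/S genes and 12 of the 18 G2/M genes.

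Between genes, levels were compared as normalized counts per kilobase of annotated exon (GENCODE M21), a length that includes exons of all transcripts and so may be too long for some genes. Cdk4 was highest per kilobase, at 973 ± 48.6 (SD, n = 3) under vehicle against 924 ± 68.4 (SD, n = 3) under BA, followed by Pcna at 787 ± 25.8 (SD, n = 3) under vehicle against 780.0 ± 26.3 (SD, n = 3) under BA. Cdk4 exceeded Pcna in every library, and Pcna in turn exceeded Ccnd1, the next gene. The lowest was Cenpf, at 16.7 ± 1.36 (SD, n = 3) per kilobase under vehicle against 17.8 ± 1.22 (SD, n = 3) under BA. Mki67 ranked 12 of 36, at 128 ± 6.17 (SD, n = 3) per kilobase under vehicle against 125 ± 7.32 (SD, n = 3) under BA. The median level was 152 per kilobase for the G1/S genes and 58.8 for the G2/M genes. Of the 35 pairs of neighbours in this order, 30 overlapped in their range over the 6 libraries, so most places in it are not distinguished.

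The number of members past the unadjusted threshold depended on single libraries and was highest without UIRI replicate 3. Without that library, an unadjusted p below 0.05 was reached by 5 of the 36 genes (13.9%), against 25.2% of all genes in that fit, and 1 had an adjusted p below 0.05, against 5.02% of all genes. The 5 were Ccnd1, Cdk6, Ccne2, Mcm6 and Kif11, and each was higher in UIRI + BA. Without UIRI replicate 1, without UIRI + BA replicate 1 or without UIRI + BA replicate 2, 0 members had an unadjusted p below 0.05, where 808 (4.21%), 1270 and 1860 of all genes did. Without UIRI replicate 2 there was 1, Kif11, against 6.98% of all genes, and without UIRI + BA replicate 3 there were 2, Ccne2 and Kif11, against 1612 of all genes.

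Other genes of the pathway were counted in the same way, to be read against the 5.67% of all genes that were higher and the 4.61% that were lower with an unadjusted p below 0.05. Of 35 further G1/S and replication genes in the table, 1 higher and 1 lower gene had an unadjusted p below 0.05, with a median log2 fold change of 0.015. Rfc3, a subunit of the clamp loader, was 368 ± 31.4 (SD, n = 3) under vehicle against 290.4 ± 6.30 (SD, n = 3) under BA, for a log2 change of -0.34 (limma adjusted p 0.354). Orc6, of the origin recognition complex, did not overlap between the groups, with a log2 change of -0.19. Of 50 further G2/M genes, 1 higher and 1 lower gene had an unadjusted p below 0.05, with a median log2 fold change of 0.0066. They were Sgo1, which protects sister chromatid cohesion, at 0.38, and the mitotic kinase Pbk at -0.27. Aspm, a spindle pole protein, did not overlap between the groups, at 0.20. Of 17 genes of RB, E2F and MuvB-MYB control, 1 had an unadjusted p below 0.05, the repressor E2f6, with a log2 fold change of 0.21. E2f5 did not overlap between the groups, with a log2 change of -0.12. With all 6 libraries, 0 genes of these 3 lists had an adjusted p below 0.05 from limma. Without UIRI replicate 3, where 25.2% of all genes had an unadjusted p below 0.05, the counts became 1 higher and 3 lower for the G1/S list, 3 higher and 0 lower for the G2/M list, and 4 higher and 1 lower for the regulators, and 1 gene of the G1/S list, higher with BA, had an adjusted p below 0.05 from limma, against 5.02% of all genes. With replicate 1 of either group left out, the G1/S list gave 0 higher and 1 lower and the other lists gave 0. With replicate 2 of either group left out, the G2/M list and the regulators gave 0, as they did with the replicate number as a block and with DESeq2. Without UIRI + BA replicate 3 the G2/M list gave 1 higher and 0 lower.

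Inhibitors of cyclin-dependent kinases hold cells out of the cycle. The 8 genes listed here as inhibitors carry Cdkn symbols and were not separated by how they act. Cdkn3, at -0.11, is among them. Their median log2 fold change was -0.32, and 7 of the 8 had a log2 fold change below 0 and 1 above. An unadjusted p below 0.05 was reached by 4, all of them lower with BA, where 4.61% of all genes were. In the same 4 the groups did not overlap, where 6.96% of all genes were lower without overlap. Cdkn2b, the inhibitor of Cdk4 and Cdk6 known as p15, read 281, 238 and 277 under vehicle against 174, 172 and 147 under BA, for a log2 change of -0.69 (limma adjusted p 0.225, DESeq2 adjusted p 0.00585). Cdkn2a, at the locus of p16 and p19, read 66.8, 52.9 and 80.0 under vehicle against 33.8, 25.8 and 20.9 under BA, for a log2 change of -1.28 (limma adjusted p 0.225, DESeq2 adjusted p 0.0104). Cdkn1c, known as p57, read 1188, 889 and 739 under vehicle against 489.8, 658 and 647 under BA, for a log2 change of -0.63 (limma adjusted p 0.312, DESeq2 adjusted p 0.0312). The fourth was Cdkn1a, known as p21, at -0.37. The count of 4 lower genes became 3 without UIRI + BA replicate 3 and 5 with the replicate number as a block. Without UIRI replicate 3 there were 5 lower and 1 higher, against 25.2% of all genes in either direction in that fit. There 2 of the 8, lower with BA, had an adjusted p below 0.05 from limma, against 5.02% of all genes. With DESeq2, 3 of the 8 inhibitors and 0 of the 36 members had an adjusted p below 0.05, where 1.49% of genes did. A test of the difference between the inhibitors and the members was not made.

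Markers of the cell types that could hold the dividing cells were summed in each library. Each sum is weighted towards its most abundant markers. In UIRI replicate 1, Lyz2 held 81113 of the macrophage sum of 123292. In that library Col3a1 held 46022 of the fibroblast and myofibroblast sum of 86846. Counts of markers are for all 6 libraries and stand against 5.67% of all genes higher and 4.61% lower with an unadjusted p below 0.05. Of 8 macrophage markers, 8 had log2 fold changes below 0, 1 of them with an unadjusted p below 0.05, and their summed normalized counts ran from 84615 to 123292 in UIRI and from 81573 to 95040 in UIRI + BA. Of 9 fibroblast and myofibroblast markers, 9 had log2 fold changes below 0, 4 with an unadjusted p below 0.05, with sums of 70790 to 86846 in UIRI and 50925 to 69633 in UIRI + BA. The 12 proximal tubule markers all had log2 fold changes above 0, 10 with an unadjusted p below 0.05. The 10 injured tubule markers were mixed, with 5 above 0 and 5 below. An unadjusted p below 0.05 was reached by 3 of them in each direction. Endothelial sums were 7883 to 9204 in UIRI and 7634 to 8623 in UIRI + BA, T cell sums 1421 to 1865 and 1162 to 2010, and B and plasma cell sums 382 to 530 and 274 to 496. Urothelium markers, all 8 with log2 fold changes below 0 and none with an unadjusted p below 0.05, summed to 143 to 619 in UIRI and 40.1 to 374 in UIRI + BA, highest in replicate 3 of each group. Sums for neutrophils were 559 to 852 and 417 to 436, with 3 of the 7 markers in the table, each lower with an unadjusted p below 0.05. UIRI replicate 3 lay near or among the UIRI + BA libraries for macrophage markers, with a sum of 84615, and for proximal tubule markers, with a sum of 67105. The part of these cell types in the values of the cell cycle genes was not tested.

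**Figure D4:**
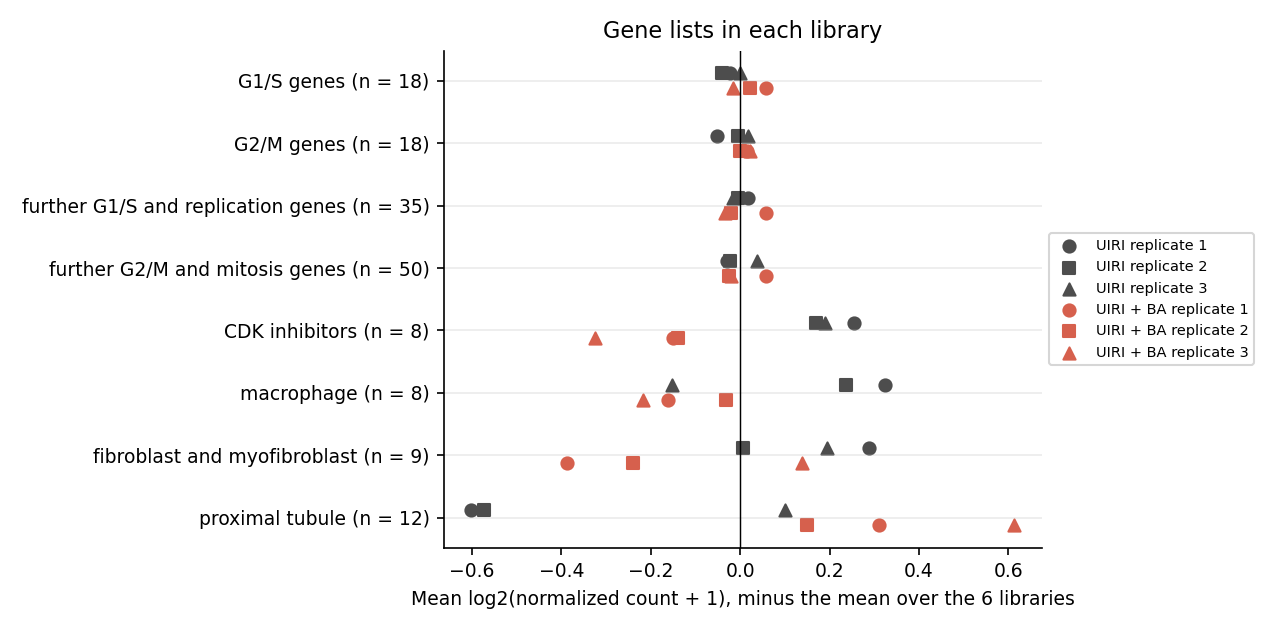
Mean log2(normalized count + 1) of each gene list in each library, minus its mean over the 6 libraries, with UIRI in grey and UIRI + BA in red. The lists of G1/S and G2/M genes stay close to 0 in all 6 libraries, whereas the CDK inhibitor means are 8.57 to 8.66 in UIRI and 8.07 to 8.26 in UIRI + BA.

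Some member counts are less certain than others. In GENCODE M21, exons of 12 members overlap a gene on the opposite strand, and the counting is not stated to use strand. For Cdk4 this neighbour is Tspan31 and for Ccne2 it is Ints8. Pseudogenes named after the member exist for Pcna, Ccnb1, Ccnb2, Ccnd3 and Tyms, between which reads can be split. Kif11, Mki67, Top2a and Bub1 have neither.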

How the data were processed

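Poly-A RNA from renal cortex of 6 mice, 3 UIRI and 3 UIRI + BA, was sequenced with a strand-specific kit per the labels, and the methods call the replicates independent biological ones. Alignment by the authors was with HISAT2, gene counting with FeatureCounts and their own testing with DESeq2. The genome build and annotation are not given in the sources used here. The deposited signal values are normalized counts per gene symbol, in which the authors divided reads by a size factor for each library. Whole reads were recovered from them for 100% of values (tolerance 0.001), giving 16510720 to 38124164 reads on genes per library. The authors' own fold changes and p-values, and 2 enrichment tables, were not used.

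All 19176 rows, which hold at least 10 reads in total, were tested with limma 3.58.1 (R 4.3.3) on log2(normalized count + 1), with an intensity trend, no covariate and Benjamini-Hochberg adjustment. Alternatives were quantile and upper quartile scaling, a mean normalized count of at least 10, a pseudocount of 0.1, the replicate number as a block, DESeq2 1.42.0 and edgeR 4.0.16 on the recovered reads, UIRI replicate 3 thinned to the depth of the others, and leaving out each library. The fits were also run on simulated data in which the changes were larger than that of any member. That run cannot show how well changes as small as those of the members are found.

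The members and lists were chosen with earlier results of these data known. All 36 members are named. From each further pathway list up to 3 genes are named, those with the lowest unadjusted p among genes whose groups did not overlap, and Cdkn1a was added after its values were seen. A further gene under this rule is not reported here. Promoters shown come from the members with the lowest unadjusted p of each stage that had a RefSeq window (GRCm38.p6). Motif counts cover both strands.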

Additional observations from a re-analysis of the deposited data

How the results depend on the processing

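Of the 36 genes, 21 kept the direction of their log2 fold change in all 14 alternatives. For the other 15 the sign turned in at least 1, in 31 of 504 values, none of them larger than 0.11 in size. The sign of Ccnd2 turned to 0.0035 with DESeq2, 0.0017 with edgeR and 0.0057 with UIRI replicate 3 thinned. Ccne1 turned to 9.9e-05 with quantile scaling and 0.0095 with that library thinned, where Pcna turned to 0.0015. Leaving out 1 library at a time gave log2 fold changes from -0.10 to 0.11 for Ccnd2, from -0.12 to 0.018 for Ccnd3, from -0.19 to 0.070 for Ccne1, from -0.045 to 0.033 for Cdk2, from -0.013 to 0.12 for Mcm4, from -0.023 to 0.20 for Mcm5, from -0.035 to 0.014 for Pcna, from -0.022 to 0.067 for Ccna2. It gave values from -0.0077 to 0.058 for Ccnb2, from -0.12 to 0.054 for Plk1, from -0.016 to 0.096 for Aurka, from -0.036 to 0.14 for Aurkb, from -0.098 to 0.17 for Bub1b, from -0.093 to 0.065 for Ube2c and from -0.081 to 0.0030 for Mki67. The causes were not tested.

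The number of genes with an adjusted p below 0.05 was 0 by limma, 213 by DESeq2 and 0 by edgeR, and ranged from 0 to 962 when 1 library was left out, the highest without UIRI replicate 3. Over the same alternatives the count of G1/S genes with an unadjusted p below 0.05 ranged from 0 to 4 and that of G2/M genes from 0 to 1. Ccnd1 alone among the members reached an adjusted p below 0.05 from limma, 0.0205 without UIRI replicate 3.

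Deviations from the group means correlated at -0.24, 0.30 and 0.15 between libraries of the same number, for numbers 1, 2 and 3. Between libraries of different numbers they correlated at -0.41 to 0.24. These values cannot decide whether the numbers pair the libraries, because the deviations of 3 libraries in a group sum to 0. With the replicate number as a block, 6 genes had an adjusted p below 0.05, with 0 members among them, and the counts of members with an unadjusted p below 0.05 stayed at 0 for G1/S and 1 for G2/M. The lowest read count of a member in a library was 48, so counting error is largest for Ccne1, the member with the fewest reads.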
